A study of Homo sapiens with 4 samples.

Results

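The comparison described here is that of Antagomir-429 with Antagomir-NC in EpCAM-positive HCCLM3 cells. HCCLM3 is a human hepatocellular carcinoma line, and EpCAM is an epithelial adhesion molecule that also marks tumour-initiating cells of the liver. The title of the series gives the search for target genes of miR-429 as its aim. Expression was profiled on 4 Affymetrix U133 Plus 2.0 arrays, 1 for each group, and 2 of them form this comparison. Cells sorted magnetically as EpCAM-positive were kept for 4 days with Antagomir-429 or Antagomir-NC at 40 µM, and those sorted as EpCAM-negative for 4 days with miR-429 mimics or miR-NC mimics at 100 nM. An antagomir is a cholesterol-conjugated antisense RNA made to bind and block a microRNA, here added to serum-free medium with serum given later, whereas a mimic is a synthetic duplex that supplies the microRNA, here carried in with a lipid reagent. All cells came from the same line, and the labels tie no sample to a second culture.

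For each gene the brightest of its single-gene probe sets was used, judged by the log2 signal averaged across all 4 arrays. It was kept if that mean reached the 75th percentile of all non-control probe sets, a signal of 265.6. That left 8130 of the 19775 genes with a single-gene probe set. At the edge of this filter, CDC14B (mean signal 265.61) and LMO7 (265.76) lay just inside, with log2 ratios of -0.11 and 0.47, and FCMR (265.49) and SIM2 (265.48) just outside, with 0.18 and -0.16. A log2 ratio is the log2 signal with Antagomir-429 minus that with Antagomir-NC, so 1 is 2-fold higher. With 1 array a side no difference here has a replicate check, no test is possible, and precision is limited by how few arrays there are. In bulk RNA, fewer cells expressing a gene and less of its RNA per cell cannot be told apart.

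MicroRNAs pair through their seed, the bases near the 5′ end, with sites mostly in the 3′ untranslated regions of messenger RNAs, and lower the level or the translation of those messages. The miR-200 family keeps epithelial cells epithelial, in large part by repressing ZEB1 and ZEB2, the repressors of E-cadherin. Blocking a microRNA is thought to raise its targets. The mature sequences below, from RefSeq (GRCh38.p14) and written 5′ to 3′, show what Antagomir-429 was made to pair with and which relatives share its seed. Capitals mark the seed, bases 2 to 8.

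hsa-miR-429: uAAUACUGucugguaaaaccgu

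hsa-miR-200b-3p: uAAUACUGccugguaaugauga

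hsa-miR-200c-3p: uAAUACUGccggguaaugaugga

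hsa-miR-200a-3p: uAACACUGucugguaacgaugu

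hsa-miR-141-3p: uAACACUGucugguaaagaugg

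The seed of miR-429 is also that of miR-200b-3p and miR-200c-3p. The seeds of miR-200a-3p and miR-141-3p carry the substitution U4C relative to miR-429, with positions counted from 1 at the 5′ end. Outside the seed, miR-200b-3p differs from miR-429 at 6 positions and miR-200c-3p, which is longer, at 7, compared base by base from the 5′ end, so an antisense to miR-429 matches those relatives in part only. MIR429, MIR200B and MIR200A lie together on chromosome 1, the mature miR-429 at chr1:1169055-1169076 on the plus strand, and MIR200C and MIR141 on chromosome 12. Mature microRNAs are not measured on this array, so the block of miR-429 itself was not checked here.

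The arrays carried a common trimmed mean signal of 500.1. On the Antagomir-NC and Antagomir-429 arrays the poly-A spike-ins, RNAs added before labelling, differed by a median log2 ratio of 0.07 over 24 probe sets, and the hybridisation controls by 0.03 over 18. The 3′ to 5′ signal ratio, which increases as RNA degrades, was 3.12 and 3.07 for actin and 0.92 and 0.90 for GAPDH. The mimic pair differed more: from miR-NC to miR-429 mimics the spike-ins had a median ratio of -0.90, the hybridisation controls -0.41, and the actin ratio was 3.41 and 2.63. The part of these differences in the mimic ratios given below was not tested. Of 10 measured hepatocellular and epithelial markers 3 passed the filter: KRT18 (signals 48460 and 49506 with Antagomir-NC and Antagomir-429), KRT8 (33183 and 30623) and EPCAM (1235 and 913). Albumin (ALB), KRT19 and the glypican GPC3 lay under 52.9, the median signal of all probe sets, on both arrays, and alpha-fetoprotein (AFP) gave only 119 and 95. Of a wider list of 33 measured hepatocyte genes 6 passed the filter, among them the urea cycle enzyme CPS1, with 7451 and 9496.5. None of the 3 leukocyte and 3 endothelial markers measured passed the filter. Of 4 stromal markers only the collagen gene COL1A1 did (10500 and 7633 by its brightest probe set), while COL3A1, DCN and PDGFRB were under it. The other COL1A1 probe sets past the filter were far dimmer, with 496 and 188, and 477 and 424. The EPCAM signal of the EpCAM-positive Antagomir-NC array, 1235, lay close to that of the EpCAM-negative miR-NC array, 1106.

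Few genes differed much between the arrays. At or past 2-fold there were 24 higher (0.295%) and 15 lower (0.185%) with Antagomir-429, 39 in all (0.48%). Under quantile normalization the counts were 17 and 16, so 51.5% in place of 61.5% of them were higher. At or past 1.5-fold, 203 genes (2.5%) were higher and 159 (1.96%) lower, 362 in all (4.45%). Under quantile normalization these were 169 and 175, so that the excess of higher genes turned. The median log2 ratio of all genes was 0.00, with 4119 genes above 0 (50.7%) and 4011 below (49.3%), and the middle 95% lay between -0.54 and 0.58. The mimics in EpCAM-negative cells gave 182 genes past 2-fold (2.24%) among the same 8130, 146 higher (1.8%) and 36 lower (0.443%). The mimic ratios lay above 0 in 3956 genes (48.7%) and below in 4174 (51.3%). The robust SD of the log2 ratio across genes was 0.21 with the antagomir and 0.44 with the mimics.

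The scatter differed with brightness. With the genes split by signal into 4 bins of equal size, from dimmest to brightest, the robust SD of the antagomir ratio was 0.34, 0.26, 0.20 and 0.12, and that of the mimic ratio 0.47, 0.46, 0.42 and 0.32. The dimmest bin held 33 of the 39 genes past 2-fold, 19 higher and 14 lower. The brightest bin held 0, and, at 1.5-fold, 7 higher and 6 lower. A given ratio therefore stands further from the bulk of genes in a bright gene than in a dim one.

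**Figure D1:**
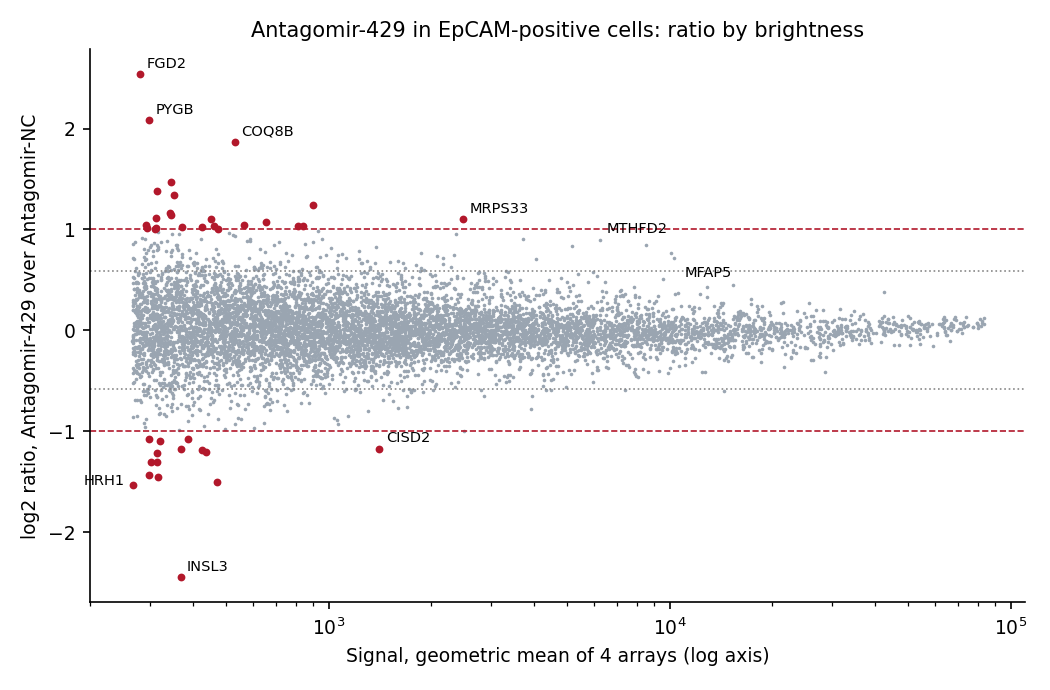
Each point is 1 of 8130 genes, with its signal (geometric mean of the 4 arrays, log axis) across and its log2 ratio of Antagomir-429 over Antagomir-NC upwards. Dashed lines mark 2-fold and dotted lines 1.5-fold; the 39 genes past 2-fold (larger points) sit mostly at the dim end, and the cloud narrows to the right.

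Genes of metabolism and mitochondria were among those with the largest ratios above 0. PYGB, the brain form of glycogen phosphorylase, had signals of 105 with Antagomir-NC and 446 with Antagomir-429, and of 395 and 425 with miR-NC and miR-429 mimics, a log2 ratio of 2.09. COQ8B, a kinase-like protein of coenzyme Q synthesis, had 223 and 813, and 794 and 556 on the mimic arrays (1.87). MRPS33, a subunit of the mitochondrial ribosome, was the brightest gene past 2-fold, with 1880 and 4026, and 2279 and 2186 on the mimic arrays (1.10). In PYGB and COQ8B the Antagomir-NC array was the low one of 4, and in MRPS33 the Antagomir-429 array was the high one.

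The largest ratio of all belonged to FGD2, an exchange factor of the small GTPase CDC42. Its signal was 73 with Antagomir-NC and 422 with Antagomir-429, and 395 and 508 on the mimic arrays, a log2 ratio of 2.54 or 5.8-fold. The Antagomir-NC array again lay apart from the other 3. Other signalling genes were PDE9A, a cyclic GMP phosphodiesterase (1.08), and MOB3B, of the family of kinase activators around LATS and STK38 (1.14). Of genes of membranes and secretion, CLDND1, a claudin-domain membrane protein, had 1.38, and SNAP25, a SNARE of vesicle fusion, 1.16. Another SNAP25 probe set, under the filter, had -0.53, at signals of 377 with Antagomir-NC and 262 with Antagomir-429. STARD3, a cholesterol transporter of late endosomes, had 1.11, and SEC61A2, a translocon subunit, 1.05.

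Among regulators of transcription, TEAD1, the DNA-binding partner of YAP, had signals of 222 with Antagomir-NC and 563 with Antagomir-429, and of 233 and 527 with miR-NC and miR-429 mimics (1.34). Here both treated arrays were high and both controls low. A second TEAD1 probe set past the filter had a smaller ratio, 0.31. E2F4, a repressive E2F factor of resting cells, had 419 and 864 (1.05) by a probe set whose design rules had been relaxed, while its other probe set, under the filter, had 0.19. The probe sets of E2F1 itself disagreed, at 0.15 for the brighter and -1.51 for the dimmer. KLHL36, a Kelch protein, had 634 and 1503 (1.25), but its second probe set past the filter lay on the other side of 0, at -0.66. Non-coding RNAs completed the 15 largest: MIRLET7BHG, the host transcript of let-7 microRNAs, at 1.47, and PPP3CA-DT, a divergent transcript of a calcineurin gene, at 1.11. Of the remaining 9 genes past 2-fold, all with ratios of 1.04 or less, 8 were named after their values were seen: SELENOI, JADE3, RWDD2B, SUPT16H, SAMD4A, SERTAD4, TMEM63B and HARBI1.

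On the lower side, INSL3, a peptide hormone of the relaxin family, had the most negative ratio. Its signals were 686 with Antagomir-NC and 126 with Antagomir-429, and 454 and 468 on the mimic arrays, a log2 ratio of -2.45 or 5.46-fold lower. HRH1, the histamine H1 receptor, had 299 and 103, and 302 and 547 on the mimic arrays (-1.53). In both genes the Antagomir-429 array was the lowest of the 4 by the brightest probe set. Another HRH1 probe set, under the filter, had 0.33, at signals of 148 with Antagomir-NC and 186 with Antagomir-429.

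Several of the others encode membrane transporters and enzymes. TPCN1, a cation channel of endosomes and lysosomes, had 664 and 234 (-1.51), with -0.06 by its second probe set past the filter. SLC17A9, the vesicular nucleotide transporter, had 450 and 164, and 519 and 257 on the mimic arrays (-1.46), so that both treated arrays were lower than their controls. ATP2A3, a calcium pump of the endoplasmic reticulum, had -1.21, and ITPKA, which phosphorylates inositol trisphosphate, -1.18. CISD2, an iron-sulfur protein of the endoplasmic reticulum and outer mitochondrial membrane, was the brightest gene 2-fold lower, with 1791 and 794, and 1782 and 1554 on the mimic arrays (-1.17). Its second probe set past the filter had -0.11. KRT16, a keratin of stressed epithelia, had 294 and 119 (-1.31), and the kallikrein KLK3 had -1.22. The remaining genes of the 15 were TMEM102 (-1.43), the leucine zipper protein TSC22D4 (-1.31), the lysosome-positioning subunit BORCS6 (-1.19), TMEM255B (-1.09), LRRC75B (-1.08) and the EF-hand protein EFHC2 (-1.08). DVL1, a transducer of Wnt signals, fell just short of 2-fold at a bright signal, with 3016 and 1513 (-0.995) and 2655 and 3202 on the mimic arrays.

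**Figure D2:**
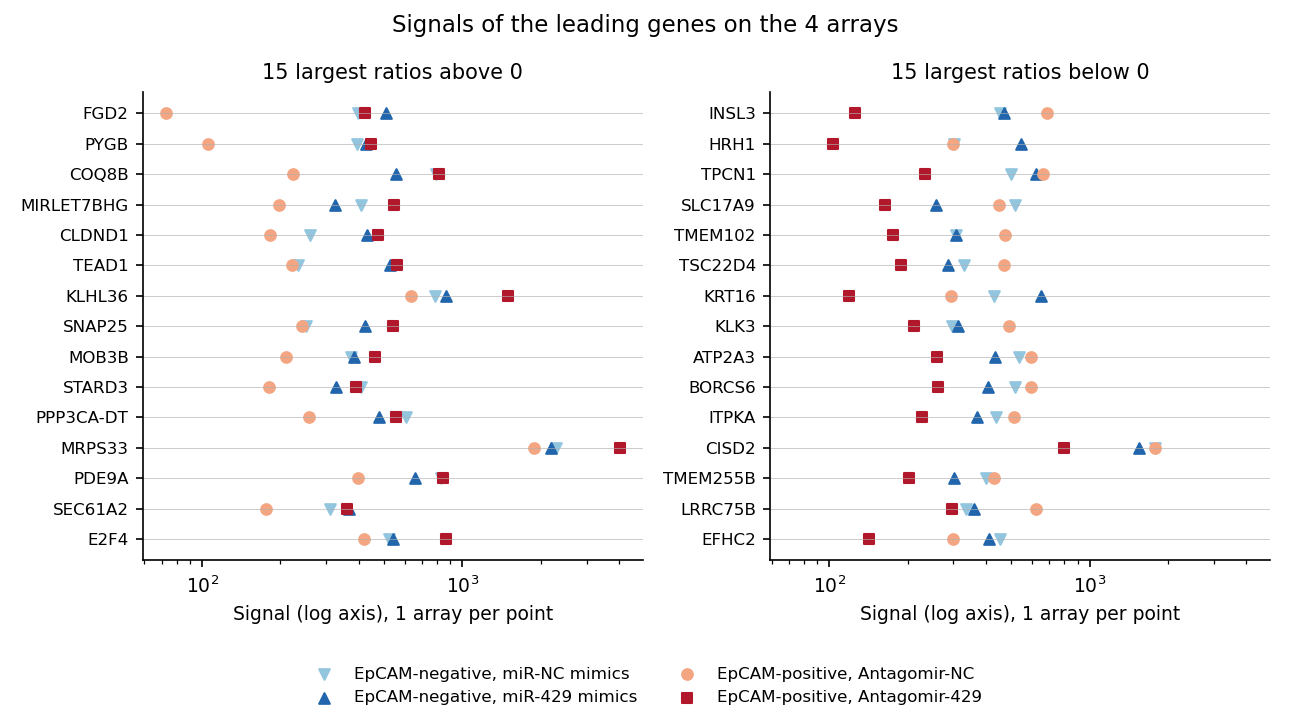
Signals on the 4 arrays (log axis, 1 array per point) of the 15 genes with the largest log2 ratio above 0 (left) and below 0 (right). On the left the Antagomir-NC point is often the one apart, as in FGD2 and PYGB; on the right the Antagomir-429 point is the lowest in each gene.

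The position of each array among the 4 was counted for the genes past 2-fold, although the choice of genes partly fixes such counts. Among the 24 higher genes, Antagomir-429 was the highest in 17 and Antagomir-NC the lowest in 21, and in 13 it was at least 1.5-fold below all 3 others. Antagomir-429 was at least 1.5-fold above all others in 4: E2F4, HARBI1, KLHL36 and MRPS33. Among the 15 lower genes, Antagomir-429 was the lowest in 15 and at least 1.5-fold below all others in 12, and Antagomir-NC was the highest in 11 and as far above all others in 3. Over all 8130 genes Antagomir-429 was the highest in 22.1% and the lowest in 19.6%, and Antagomir-NC the highest in 19.4% and the lowest in 17.8%. Over all 8130 genes the Antagomir-429 array was apart in this way, in either direction, in 0.824% and the Antagomir-NC array in 0.689%.

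Genes with several probe sets allow a second look on the same arrays, though not a replicate of the condition. Of 8130 genes, 2835 had at least 2 probe sets past the filter. The brightest and the second differed by a median of 0.18 log2 units, and by 0.54 at the 90th percentile. Across these genes, which share both arrays and their scaling, Pearson's r between the probe sets was 0.23 and Spearman's rho 0.24. Of the 29 genes whose brightest probe set was at least 1.5-fold higher, the second lay above 0 in 24 and was past 1.5-fold too in 4. Of the 29 that were lower, the second lay below 0 in 21 and was past 1.5-fold in 7. Most genes past 2-fold had no such second look: 20 of the 24 higher and 13 of the 15 lower had 1 probe set past the filter. Of the 15 lower, ATP2A3 and KLK3 were measured by probe sets of the kind that can bind unrelated transcripts.

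Every probe set past the filter was at least 1.5-fold higher in 3 genes (0.106% of 2835) and lower in 6 (0.212%). The higher ones were EPB41L2, MFAP5 and LPL. EPB41L2, a membrane-skeleton protein of the band 4.1 family, had signals of 595 with Antagomir-NC and 1216 with Antagomir-429, and of 523 and 1147 on the mimic arrays, with ratios of 1.03 and 0.59 by its probe sets. MFAP5, a glycoprotein of elastic microfibrils, had 7374 and 12132, and 11872 and 10546 on the mimic arrays, with ratios of 0.72, 0.75 and 0.94. LPL, lipoprotein lipase, had 1082 and 1723, and 920 and 1396 on the mimic arrays (0.67 and 0.66). EPB41L2 and LPL were high on both treated arrays. By its brightest probe set MFAP5 was low on the Antagomir-NC array alone, but its dimmer probe sets were also higher with miR-429 mimics than with miR-NC mimics, at 1154 and 596 and at 782 and 586.

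The 6 lower genes were PMAIP1, OASL, PTN, PCDH7, PLPP1 and RUNX3. PMAIP1, the BH3-only death protein NOXA, had signals of 590 with Antagomir-NC and 302 with Antagomir-429, and of 1055 and 716 on the mimic arrays, with ratios of -0.97 and -0.86. OASL, an interferon-induced protein related to the oligoadenylate synthases, had 663 and 388, and 633 and 429.3 on the mimic arrays (-0.77 and -1.19). PTN, the growth factor pleiotrophin, had 553 and 321, and 501 and 257 on the mimic arrays (-0.79 and -0.81), but a dimmer probe set under the filter had 0.73. In PMAIP1, OASL and PTN both treated arrays were below their controls. The protocadherin PCDH7 had -0.62 and -0.92, the lipid phosphatase PLPP1, at signals of 3871 and 2250, had -0.78 and -0.59, and the transcription factor RUNX3 had -0.73 and -0.60. A few genes came close to this rule. HSP90AA1, the stress-inducible cytosolic HSP90, was higher by all 4 of its probe sets (0.54 to 0.90). DUSP4, a nuclear MAP kinase phosphatase, was higher by all 3 (0.52 to 0.74). By the brightest probe set HSP90AA1 had signals of 4809 and 7005, and 6938 and 6073 on the mimic arrays. DUSP4 had 1204 and 2008, and 2537 and 3072 on the mimic arrays. In each of these probe sets the Antagomir-NC array was the lowest of the 4.

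**Figure D3:**
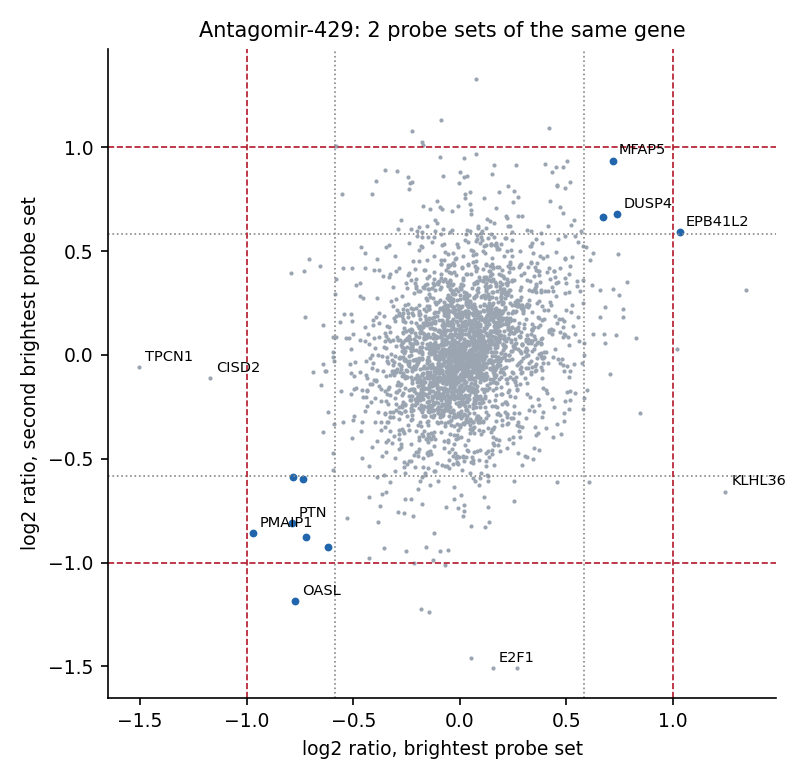
Log2 ratio of Antagomir-429 over Antagomir-NC by the brightest (across) and second brightest (upwards) probe set of 2835 genes, 1 point per gene. Larger points mark genes in which both were past 1.5-fold in 1 direction (dotted lines); TPCN1, CISD2 and KLHL36 lie far out by the brightest probe set only, and E2F1 by the second only.

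In the brightest of the 4 signal bins, where the arrays scattered least, 13 were past 1.5-fold. MTHFD2, a mitochondrial folate enzyme, had signals of 3724 with Antagomir-NC and 6940 with Antagomir-429, and of 7828 and 7493 on the mimic arrays (0.90). A far dimmer MTHFD2 probe set, under the filter, had -1.225, at 193 with Antagomir-NC and 83 with Antagomir-429. RPL22L1, a ribosomal protein paralog, had 4107 and 7327, and 5272 and 4459 on the mimic arrays (0.83). HK2, the hexokinase that starts glycolysis in tumour cells, had 2271 and 3707, and 4050 and 7962 on the mimic arrays (0.71). MFAP5 was described above. By the brightest probe set the Antagomir-NC array was the lowest of the 4 in MTHFD2, RPL22L1, HK2 and MFAP5. It was also the lowest in MT1H and IST1, given next. The Antagomir-429 signal of MTHFD2 and HK2 was below both mimic-arm signals. MT1H, a metallothionein whose probe set can bind its close paralogs, had 0.84. IST1, a subunit of membrane-scission complexes, and NICOL1 were named after their values were seen and had 0.77 and 0.91. The 6 lower ones were PLPP1, the chaperone cofactor DNAJB11 (-0.65), the early response gene IER3 (-0.61), the NF-kB inhibitor NFKBIA (-0.59), and, also named after their values were seen, HOXC6 (-0.59) and the nuclear envelope protein SUN1 (-0.59, but -0.10 over its probe sets).

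Genes were then grouped into 41 lists, each read against all genes past the filter, whose median was 0.00 with 50.7% above 0. The counts and medians are descriptions of this pair of arrays. Reported targets of the shared miR-429 seed did not lie to 1 side: of 26 members past the filter 13 were above 0 and 13 below, with a median of 0.01, and -0.01 with median centring of the arrays. The members past 1.5-fold were both higher, 2 of 26 (7.69%) where 2.5% of all genes were. PTPN12, a tyrosine phosphatase that restrains cell motility, had signals of 325 and 506 with Antagomir-NC and Antagomir-429, and 503 and 474 on the mimic arrays (0.64). FBLIM1, an actin-linking adaptor of integrin adhesions, had 449 and 693, and 578 and 745 on the mimic arrays (0.63). The Antagomir-NC array was the lowest of the 4 in both. ERRFI1, a feedback inhibitor of EGFR, had 0.55, the secretory coat subunit SEC23A 0.47 and the Notch receptor NOTCH1 -0.48. RBBP4, a histone-binding chromatin subunit, had 0.09, with -0.14 by its lowest probe set past the filter. ZEB1, with signals of 123 and 65, and ZEB2, with 45 and 30, were under the filter. The textbook targets of the family could therefore not be read here. The mimic ratios of the 26 listed targets had a median of 0.29, with 21 above 0 and 5 below. Of all genes, 48.7% had a mimic ratio above 0. The mimic ratio of ERRFI1 was 0.89.

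Epithelial genes had 7 of 17 members above 0 and a median of -0.08, with the claudin CLDN4 at -0.88 (signals 549 and 298). The epithelial transcription factor ELF3 had -0.50 and CLDN7 -0.31, against 0.33 for the desmosomal plaque protein DSP and 0.38 for the sorting protein MAL2. Regulators and genes of epithelial-mesenchymal transition had 6 of 17 above 0 and a median of -0.03, with 0 past 1.5-fold. Extracellular matrix and integrin genes had 10 of 24 above 0 and a median of -0.10, with the collagen hydroxylase PLOD2 at -0.64.

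Markers of liver tumour-initiating cells had a median of -0.27, between -0.28 and -0.19 over the settings tried, with 8 of 11 members below 0 and 0 past 1.5-fold. It was the lowest of the 41 medians, except under weaker filters on low signals, where the mostly dim leukocyte and stroma markers had -0.28 (filter at the median of probe sets) and -0.49 (no filter). EPCAM had signals of 1235 with Antagomir-NC and 913 with Antagomir-429, and of 1106 and 3838 on the mimic arrays (-0.44). CD44, the hyaluronan receptor, had 5969 and 4195, and 6168 and 8236 on the mimic arrays (-0.51), with a median of -0.15 over its 8 probe sets past the filter. CD24, a small surface glycoprotein, went the other way, with 5745 and 8439, and 3232 and 5289 on the mimic arrays (0.55). All 6 of its probe sets were above 0, from 0.21 to 0.65. EPCAM and CD44 thus had ratios below 0 in this comparison and above 0 with the mimics, while CD24 was above 0 in both. The peptidase ANPEP had -0.32, SOX12 -0.33, the adhesion receptor ICAM1 -0.34, with -0.04 by its second probe set, and CD47 0.07.

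Most genes of the growth-factor response lay below 0. Of 31 immediate early and MAPK feedback genes, which growth factors and stress induce within minutes to hours, 22 were below 0, or 71.0% against 49.3% of all genes, with a median of -0.20 (-0.21 to -0.16 over the settings). At or past 1.5-fold 5 of the 31 were lower, where 1.96% of all genes were, and 1 was higher (3.23%, against 2.5% of all genes). JUNB, an AP-1 subunit, had signals of 1161 with Antagomir-NC and 638 with Antagomir-429, and of 1500 and 1024 on the mimic arrays (-0.86). The others were the phosphatases DUSP2 (-0.77) and DUSP10 (-0.73, with 0.40 by its second probe set), IER3 and JUN (-0.59, with -0.37 and -0.34 by its other probe sets). IER3 had signals of 9930.5 and 6525, and 24163 and 27392 on the mimic arrays, both far above the pair compared here. DUSP4, at 0.74, and SPRED2, an inhibitor of RAS signalling, at 0.57, lay above 0, as did DUSP1 at 0.27. FOS had -0.21 and MYC -0.27, and EGR1 and DUSP6 were under the filter.

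NF-kB and inflammatory genes had 12 of 20 members below 0 and a median of -0.06. The chemokine CXCL2 had 387 and 232 (-0.74), the precursor of an NF-kB subunit NFKB2 -0.62, NFKBIA -0.59, NFKBIZ, another IkB-like protein, -0.50 and lipocalin LCN2 -0.41. The complement component C3 had the opposite sign, with signals of 1487 and 2872, and 1830 and 4011 on the mimic arrays (0.95), high on both treated arrays. The cytokine IL6 had 0.31.

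The YAP list had a median of 0.31, between 0.23 and 0.31 over the settings tried. It was the highest of the 41, except that the small RNA list had 0.30 with the filter at the median of probe sets, and the hepatocyte list 0.28 and the small RNA list 0.27 with no filter. YAP is the coactivator held back by the Hippo kinases LATS1 and LATS2, and it acts through TEAD proteins. Of 19 members past the filter 15 were above 0, or 78.9% against 50.7% of all genes. TEAD1 and CCN2 were at least 1.5-fold higher, 2 of 19 (10.5%) where 2.5% of all genes were. The secreted matricellular protein CCN2 (CTGF), a widely used YAP reporter, had signals of 1073 with Antagomir-NC and 1799 with Antagomir-429, and of 589 and 1138 on the mimic arrays (0.75). Its relative CCN1 had 0.54, with -0.18 by its other probe set. The phosphatase PTPN14 had 0.51, the membrane protein MYOF 0.45, and the Hippo components LATS2, AJUBA and AMOTL2 had 0.35, 0.35 and 0.33. YAP1 itself, at 897 and 879, had -0.03, and its paralog WWTR1 (TAZ) had 0.15, with a range of -0.20 to 0.35 over its 3 probe sets. GADD45B was the lowest, at -0.38, and its other probe sets past the filter had -0.60 and -0.81. The mimic ratios of the same 19 genes had a median of 0.57, with 14 above 0, so the list was not on opposite sides of 0 in the mimic and antagomir comparisons.

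Because most listed genes lay on 1 side of 0, its promoters were searched for the TEAD core GGAATG and its reverse complement CATTCC in the 250 bases before the start of the gene. Of 14 listed genes with a promoter entry 3 held it (21.4%), against 11.9% of 27305 promoters in RefSeq (GRCh38.p14) and 9.11% of 6753 promoters of genes past the filter. CCN2 held 3 copies and PTPN14 and YAP1 held 1 each. TEAD1 and CCN1 were not among the 14 genes searched. The 200 bases before CCN2, chr6:131951373-131951572 on the minus strand, are shown with the motif in capitals, because this gene had the larger signals of the listed pair past 1.5-fold and held the most copies.

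CCN2 promoter: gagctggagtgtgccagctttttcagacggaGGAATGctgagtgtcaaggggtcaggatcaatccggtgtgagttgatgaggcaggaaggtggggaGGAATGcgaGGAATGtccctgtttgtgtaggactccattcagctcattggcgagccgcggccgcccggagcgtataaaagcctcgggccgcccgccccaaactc

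A match describes letters in this window, and binding was not measured here. YAP1 held a copy and had a ratio near 0, while AJUBA, LATS2 and AMOTL2 held none in their windows and had ratios above 0.3.

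Genes of the integrated stress response and amino acid supply, which ATF4 induces when amino acids run short, had 27 of 40 members above 0 (67.5%) and a median of 0.11 (0.10 to 0.12 over the settings). MTHFD2 and ASNS were past 1.5-fold. Asparagine synthetase, ASNS, had signals of 1102 with Antagomir-NC and 1948 with Antagomir-429, and of 973 and 1722 on the mimic arrays (0.82), so it was high on both treated arrays. The isoleucyl-tRNA synthetase IARS1 had 0.52, cystathionase CTH 0.35 and the glycyl-tRNA synthetase GARS1 0.34. ATF4 had -0.07, ATF3 -0.38, with 0.09 by its second probe set, and the synthetase EPRS1 and the serine pathway phosphatase PSPH had -0.27 and -0.28. Chaperones of the endoplasmic reticulum had 9 of 23 above 0 and a median of -0.04, with DNAJB11 at -0.65, and cytosolic heat shock proteins 15 of 26 and 0.06.

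Mitotic genes had 28 of 45 members above 0 (62.2%) and a median of 0.11. TOP2A, the topoisomerase of chromosome condensation, had 0.85, and CKAP5, a microtubule polymerase, 0.77, with 0.22 by its second probe set. The kinases PLK1, NEK2 and AURKA had 0.52, 0.53 and 0.49, and the spindle midzone protein RACGAP1 0.54. By the brightest probe set the Antagomir-NC array was the lowest of the 4 in all of these genes, TOP2A and CKAP5 included. TOP2A had 365 with Antagomir-429, below both mimic-arm signals, 504 and 444. CCNF, a cyclin-like F-box protein, had -0.59, with 0.02 by its other probe set. HMMR had -0.43 and the phosphatase CDC25C -0.40, and in these and CCNF the Antagomir-429 array was the lowest. E2F targets and DNA replication genes had 30 of 53 above 0 and a median of 0.01, with the polymerase subunit POLD3 at 0.77. Among p53 targets, with 10 of 22 above 0, the kinase PLK2 had 0.94 (signals 385 and 740) and PMAIP1 -0.97. The largest members thus pointed both ways. In POLD3 and PLK2, too, the Antagomir-NC array was the lowest of the 4.

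The small RNA machinery, which makes and uses microRNAs, had 9 of 14 members above 0 and a median of 0.18, with 0 past 1.5-fold. DROSHA, which cuts primary microRNA transcripts, had signals of 2522 and 3734, and 1548 and 3817 on the mimic arrays (0.57). The nuclear exporter XPO5 had 0.52, but -0.07 and -0.14 by its other probe sets past the filter, the DICER partner TARBP2 had 0.46 and the editing enzyme ADAR 0.43. The Argonaute AGO2 had -0.24 and the helicase MOV10 -0.41, with 0.17 by its second probe set. Its median was 0.30 once dimmer members were let in and 0.13 with both arrays of the pair past the filter, so it moved with the choice of genes.

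Large cellular machines had medians near 0. Cytosolic ribosomal proteins had 38 of 57 members above 0 and a median of 0.03, mitochondrial ribosomal proteins 49 of 75 and 0.04, respiratory chain subunits 31 of 69 and -0.01, and proteasome subunits 16 of 39 and -0.01. Single members stood out: RPL22L1, MRPS33, MRPL39 (0.63) and the proteasome assembly chaperone PSMD5 (0.71). In sterol synthesis, with 11 of 26 above 0 and a median of -0.03, HMGCS1, which makes the precursor of mevalonate, had 600 and 357 (-0.75), and INSIG2, which holds back sterol sensing, -0.60. In fatty acid metabolism the desaturase FADS2 had -0.62 and the lipid droplet protein PLIN2 0.60. Among interferon genes, with 9 of 25 above 0 and a median of -0.06, EIF2AK2, the double-stranded RNA kinase PKR, had 0.79 and OASL -0.77. Glycolysis and hypoxia genes had 19 of 40 above 0 and a median of -0.01, where EGLN3, a prolyl hydroxylase that senses oxygen, had -0.65 and HK2 0.71. In the Wnt list, with 8 of 19 above 0, the secreted antagonist DKK1 had 1284 and 2062 (0.68) and DVL1 -0.995. Zinc finger genes of the ZNF family had 64 of 121 above 0. Of these 121, 4 were at least 1.5-fold higher (3.31%, against 2.5% of all genes) and 7 lower, where 1.96% of all genes were. Among them were ZNF639 (0.69), ZNF320 (-0.88) and ZNF385A (-0.83). Another ZNF320 probe set, under the filter, had 0.80, at signals of 144 with Antagomir-NC and 252 with Antagomir-429. The nuclear RNA MALAT1 had -0.72 (640 and 388), with -0.88 and -0.33 by its other probe sets past the filter.

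**Figure D4:**
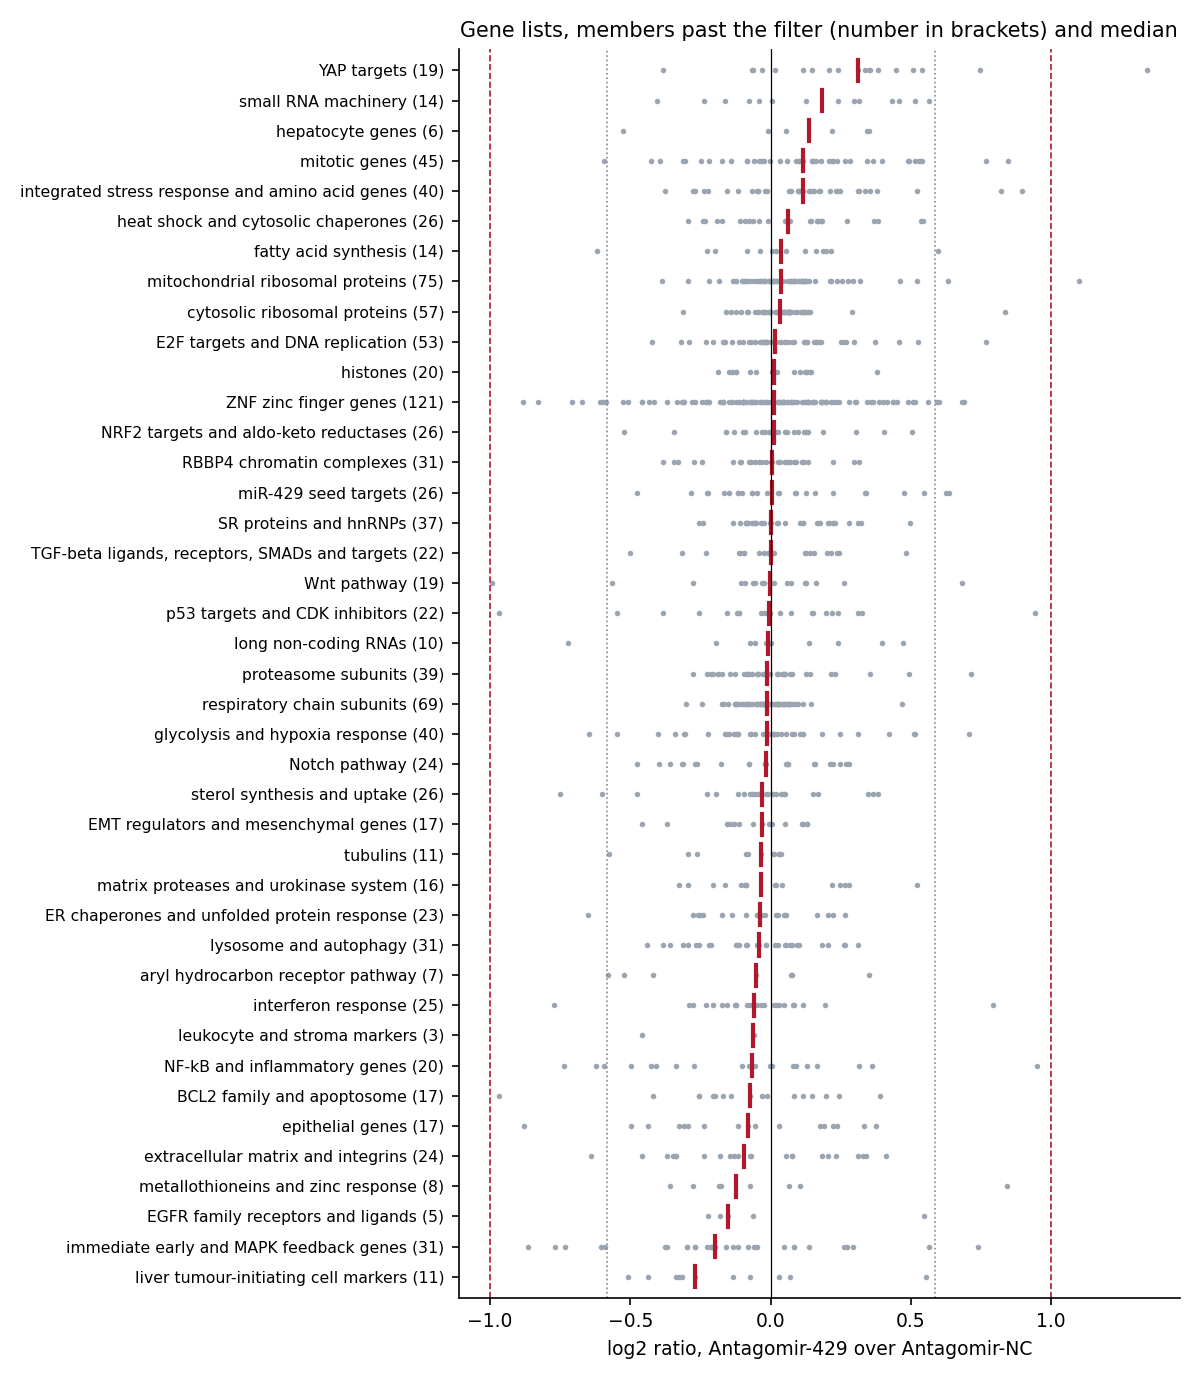
Log2 ratios of Antagomir-429 over Antagomir-NC in 41 gene lists, 1 point per member past the filter (number in brackets), with a bar at the median. The list labelled YAP targets (median 0.31), which also holds YAP1, its paralog WWTR1 and its partner TEAD1, is at the top. Tumour-initiating cell markers (-0.27) are at the bottom. Dotted and dashed lines mark 1.5-fold and 2-fold.

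The mimics supply the microRNA that the antagomir blocks, so a gene governed by miR-429 alone would be on opposite sides in the 2 comparisons, which share no array but differ in cell population, agent and delivery. At 2-fold 0 genes were on opposite sides. Of all genes, 0.443% were 2-fold lower and 1.8% 2-fold higher with the mimics, so in lists of 24 and 15 genes a count of 0 is near those shares. With Antagomir-429, 0.295% of all genes were 2-fold higher and 0.185% lower. On the same side were EPB41L2, JADE3 and TEAD1, higher in both (12.5% of the 24 and 2.05% of the 146), and SLC17A9, lower in both (6.67% of the 15 and 2.78% of the 36). At 1.5-fold the mimics had 806 genes higher (9.91%) and 439 lower (5.4%), 1245 in all (15.3%). There, 65 genes were higher in both, 32.0% of the 203 antagomir genes and 8.06% of the 806 mimic genes. A further 13 were lower in both, 8.18% of the 159 and 2.96% of the 439, and this count was 25 with median centring and 29 with quantile normalization. The genes higher in both included MET, the receptor of hepatocyte growth factor, with signals of 451 and 833 in this comparison and 364 and 867 on the mimic arrays (0.89 and 1.25), and HIPK1, a nuclear kinase (0.84 and 1.35).

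Opposite sides at 1.5-fold held 25 genes. In the direction of a microRNA target, higher with Antagomir-429 and lower with miR-429 mimics, there were 14 (6.9% of the 203 and 3.19% of the 439). These shares were near those of all genes, of which 5.4% were lower with the mimics and 2.5% higher with Antagomir-429. KLHL26, a Kelch protein, had signals of 255 with Antagomir-NC and 470 with Antagomir-429, and of 477 with miR-NC and 188 with miR-429 mimics (0.88 and -1.34). TICAM1, the adaptor TRIF of Toll-like receptor 3, had 549 and 847, and 819 and 489 (0.63 and -0.74). The reverse direction held 11 (6.92% of the 159 and 1.36% of the 806), among them HRH1, KRT16, CXCL2, DUSP10 and PLOD2, and, named after their values were seen, the nuclear receptor NR4A2 (-0.63 and 1.05, with antagomir ratios of only -0.24 and -0.08 by its other probe sets) and the corepressor BCORL1 (-0.60 and 1.55). For that reverse direction, 9.91% of all genes were higher with the mimics and 1.96% lower with Antagomir-429. Across all 8130 genes, which share the arrays and their scaling, Pearson's r and Spearman's rho between the antagomir and mimic ratios were both 0.19.

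**Figure D5:**
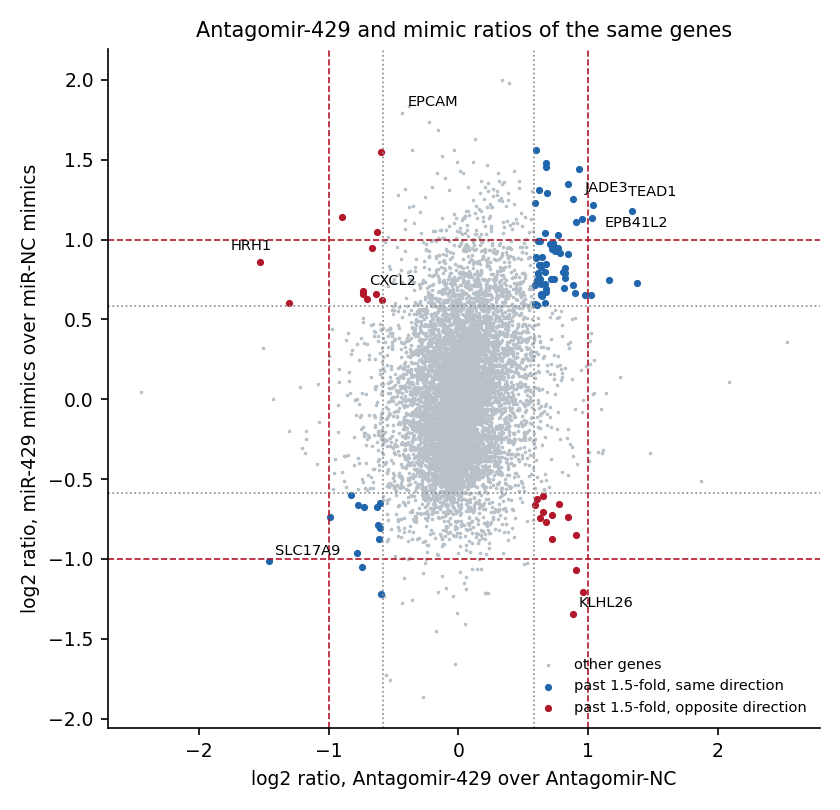
Log2 ratios of 8130 genes with Antagomir-429 over Antagomir-NC (across) and with miR-429 mimics over miR-NC mimics (upwards), 1 point per gene; dotted and dashed lines mark 1.5-fold and 2-fold. The upper right corner holds 65 genes past 1.5-fold in both and the lower right corner 14 in the direction of a target; the cloud is taller than wide.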

How the data were processed

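Total RNA of 4 samples was measured on 1-colour Affymetrix arrays, 1 array per group. The deposited values are log2 signals of MAS5, which the submitters' processing notes name; the version and scaling target of MAS5 and its calls of presence are not stated in the labels. The common trimmed mean (2% cut at each end) shows that the authors had scaled the arrays, and no other scaling was applied. Of 54675 probe sets, 62 controls were left out. GEO's annotation of the platform, which may be out of date, gave 1 symbol for 41091 and several for 1801, and did not list 11721. Entrez identifiers of 41037 matched RefSeq (GRCh38.p14), used for names, gene spans and printed sequences; 54 did not match and kept their names. Tools were Python 3.11.15, numpy 2.4.6, pandas 2.3.3 and scipy 1.17.1. The counting was tested on simulated data.

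Named genes were EPCAM, RBBP4, ZEB1, ZEB2 and E2F1; the 15 largest ratios in each direction with the dimmer array at or above 52.9, and up to 5 with it under that level, of which there were none among the largest; up to 12 genes in each direction with all probe sets past 1.5-fold; genes past 2-fold on opposite sides with the mimics; and up to 6 members of a list past 1.5-fold, otherwise its 2 largest. Members of lists beyond these, and genes marked so, were picked with their values in view. The comparison, the lists and the rules were chosen with earlier results of these data known. Seed matches in transcripts were not analysed here.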

Additional observations from a re-analysis of the deposited data

Results flagged for a closer look

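Probe sets with no gene symbol or with several were outside the gene counts. Of 1535 such probe sets past the same filter, 7 were at least 2-fold higher with Antagomir-429 and 5 were lower. Of the 8130 genes, 24 (0.295%) were 2-fold higher and 15 (0.185%) lower. The median log2 ratio of the 1535 probe sets was 0.005. The largest ratio was 1.60, at signals of 167 with Antagomir-NC and 508 with Antagomir-429, and the most negative -1.49, at 484 and 173. Both come from probe sets of the kind that can bind several transcripts, and their transcripts are not named here.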

How the results depend on the processing

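The counts depended most on the filter on low signals. With genes kept from the median of probe sets, 490 were 2-fold higher and 465 lower, 1232 and 1093 at 1.5-fold, and 50 and 50 had probe sets all past 1.5-fold; with no filter these were 2226 and 2412, 3471 and 3558, and 307 and 342. With both arrays past the filter, 9 were 2-fold higher and 2 lower, and 1 gene had all probe sets lower. Beside the mimics at 1.5-fold, genes higher in both numbered 302 and 1096 under the median filter and no filter, lower in both 250 and 1105, and on opposite sides 415 and 2099. Lower in both were 25 with median centring and 29 with quantile normalization. List medians that moved by more than 0.1 were hepatocyte genes (0.28 with no filter), metallothioneins (0.065 with either weaker filter), small RNA machinery (0.30 at the median filter) and leukocyte and stroma markers (-0.28 at the median filter, -0.49 with none). The weaker filters admit dimmer genes; for scaling the cause was not tested. Of 100 named genes past 1.5-fold, 0 changed sign under 6 of the 7 settings. When both arrays had to pass the filter, 0 of the 66 with a value did. A change of filter leaves a gene's ratio as it was, and an offset cannot turn its sign. Median centring shifted all ratios alike and by little (median 0.003 to -0.008). Only quantile normalization and the median over probe sets could therefore have turned a sign. On the same side, 97 stayed past 1.5-fold with quantile normalization or an offset of 16 signal units, and 91 with the median over probe sets. Signs of list medians turned in 5 lists with median centring, 3 with quantile normalization, 0 with the offset, 3 with the median filter, 6 with none, 3 with both arrays past the filter and 5 with the median over probe sets; metallothioneins, which turned with the weaker filters, had -0.12. No paired analysis was possible because each group holds 1 array, and for the same reason no replicate could be left out. Dim signals limit single genes.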

Other observations

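Genes past 1.5-fold differed in the length of the gene on the genome. The median span was 41.59 kb for the 203 higher genes and 21.56 kb for the 158 lower genes with a span, against 25.22 kb for all 8125 genes with one. In 5 bins of 1625 genes from the shortest to the longest span, the median antagomir ratio went from -0.02 to 0.04, and that of the mimics from -0.24 to 0.27. Spearman's rho with span across genes was 0.11 and 0.38. The part of span in the genes shared with the mimics was not tested.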
